A study of Mus musculus with 6 samples.

Results

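Eph receptors and their ephrin ligands, netrins and their receptors, and Slits and their Robo receptors were examined in Pax6-deficient and control retinal progenitor cells (RPCs). The list held 35 genes, chosen by name with earlier results of these data known. Of these, 34 had a probe set that the platform annotation gives to that gene alone: 13 ligand genes and 21 receptor genes, out of 18193 genes on the array. Ephb2 was the gene of the list without such a probe set. Each gene was represented by its brightest probe set, by the mean of all 6 arrays, and all 74 probe sets of these genes were then compared as well.

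The control pools came from Pax6+/+;α-Cre embryos and the mutant pools from Pax6 loxP/loxP;α-Cre embryos (labelled Pax6 flox alpha-Cre), both on the ICR background and both at E12 (embryonic day 12). Each group had 3 pools of sorted cells, and each pool was hybridised to 1 Affymetrix mouse array. Control and mutant embryos alike carried the α-Cre transgene, which makes Cre and GFP in distal RPCs, so GFP-positive cells of both genotypes were sorted from dissociated eyes. The transgene is inactive in some distal RPCs, and the construct makes GFP together with Cre. How many of the sorted mutant cells kept Pax6 was not tested. How many embryos went into a pool is not stated. In such bulk RNA, fewer cells of one kind and less RNA per cell cannot be told apart.

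Ephs are receptor tyrosine kinases that bind ephrins on neighbouring cells. Ephrin A ligands are held in the membrane by a lipid anchor and ephrin B ligands span it, and signals can run into the cell that bears the receptor and into the cell that bears the ligand. In the retina, graded EphA and ephrin A levels run along the nasal-temporal axis and graded EphB and ephrin B levels along the dorsal-ventral axis, and these gradients later set where ganglion cell axons end in the brain. Netrins are secreted guidance proteins. They attract axons through Dcc and repel them through Unc5 receptors, and netrin 1 at the optic disc guides ganglion cell axons out of the eye. Slits are secreted proteins that act through Robo receptors and keep ganglion cell axons on their path.

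Group means are given with the SD of 3 arrays, and differences are mutant minus control on the log2 scale. Array medians of log2 intensity lay between 3.68 and 3.71, and this level is called the array median below. Arrays of one group had correlations of 0.995 to 0.997 and arrays of different groups 0.991 to 0.993. For Pax6 itself, 1 of 5 probe sets was called lower, with 6.34, 6.44 and 6.14 on control arrays, 4.79, 4.88 and 4.45 on mutant arrays and a log2 difference of -1.60 (limma adjusted p = 0.00329). The other 4 had log2 differences between -0.22 and 0.10. Among them was the brightest Pax6 probe set, with a log2 difference of -0.11 (limma adjusted p = 0.306), so by the brightest probe set Pax6 was not called. The sources used here do not give the position of any Pax6 probe set relative to the deleted exons. Each of the 9 progenitor markers measured, such as Lhx2 and Six3, had a level above the array median in both groups. Some markers of other cells were bright as well, while others, such as Rpe65, lay below the array median. Mean log2 intensities in control and mutant pools were 11.42 and 11.75 for Pmel of pigment epithelium and 12.52 and 12.59 for the erythroid gene Hbb-y. The term RPCs here thus stands for the sorted pools, whose purity was not tested.

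A call required a fold change of 1.5 or more (0.58 on the log2 scale), p under 0.05 and, after Benjamini-Hochberg adjustment, p under 0.10 in limma, fitted over all 45037 probe sets. In mutant RPCs 5 of 34 genes were higher, namely the receptor genes Epha1, Epha4 and Robo1 and the ligand genes Efna1 and Ntn1. This compares with 2.28% of all genes called higher. The netrin receptor genes Dcc and Unc5b were lower, 2 of 34, against 0.918% of all genes called lower. Together they were 7 of 34, against 3.2% in either direction. Both group means lay below the array median for 6 of the 34 genes and for 6761 of all 18193 genes. The shares of all genes are thus not shares of equally bright genes. Of the 13 ligand genes 2 were higher and none was lower, while 1 had an unadjusted p under 0.05 and a negative log2 difference. Of the 21 receptor genes 3 were higher and 2 were lower. The median log2 difference was 0.07 over the 34 genes, 0.04 over the ligands and 0.09 over the receptors, and it was -0.01 over all genes. The groups did not overlap for 14 of the 34 genes, 9 with the mutant arrays above and 5 with them below, against 33.4% of all genes without overlap. Part of these genes stand in the study's own list of changed probe sets, which was drawn from the same arrays, so their direction is not independent evidence. The genes examined here were also chosen with earlier results of these data known, so their counts are not independent of these arrays.

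**Figure D1:**
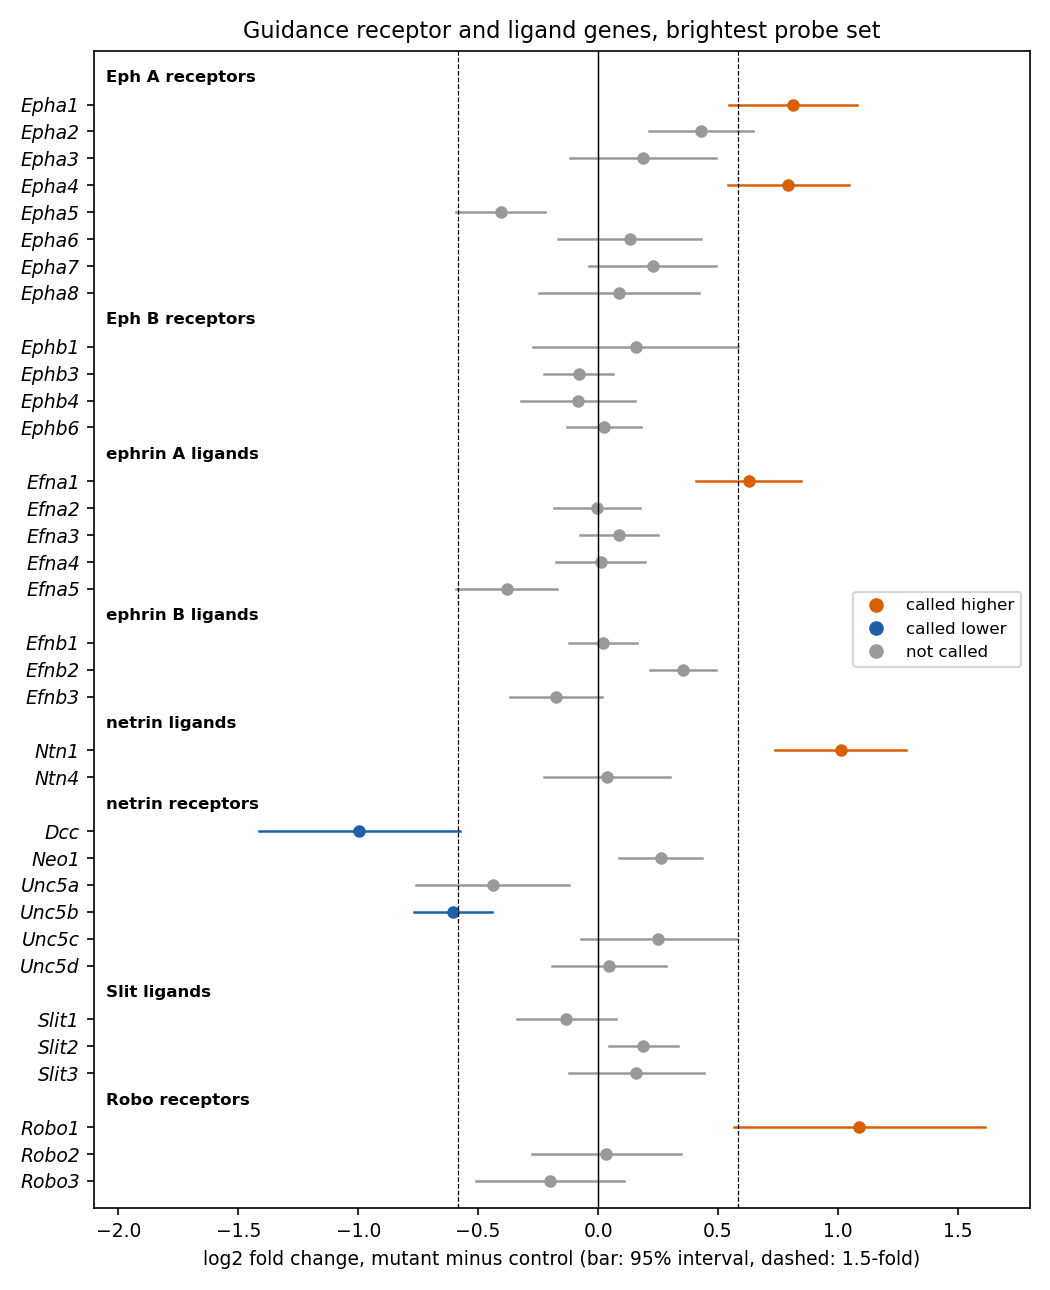
Log2 difference of each of the 34 genes by its brightest probe set (x axis, mutant minus control, 3 arrays in each group), grouped by family, with 95% intervals as bars and dashed lines at a fold change of 1.5. Orange points are the 5 genes called higher, blue points are Dcc and Unc5b, and grey points are the 27 genes not called.

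Upstream sequences of called genes are shown because these genes differed on the same arrays. RefSeq windows (GRCm38.p6) were held for 29 of the 34 genes and for 5 of the 7 called genes, all but Ntn1 and Dcc, and the 250 bases before the annotated start are printed, 5′ to 3′, for 4 of them. Capitals mark matches to any of 3 motifs, searched on both strands: CANNTG, the E-box of bHLH factors, TAATTA, a core bound by many homeodomains, and TTCACGC, a core of the paired-domain site of Pax6. No motif overlapped another. The windows were chr3:89280952-89281201 on the minus strand for Efna1, chr6:42373269-42373518 on the minus strand for Epha1, chr16:72662899-72663148 on the plus strand for Robo1 and chr10:60831582-60831831 on the minus strand for Unc5b.
Efna1: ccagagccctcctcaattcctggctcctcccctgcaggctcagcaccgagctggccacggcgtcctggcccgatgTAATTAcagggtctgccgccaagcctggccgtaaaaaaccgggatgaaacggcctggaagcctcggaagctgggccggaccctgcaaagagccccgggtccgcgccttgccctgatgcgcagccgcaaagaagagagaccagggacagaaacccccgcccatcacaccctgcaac
Epha1: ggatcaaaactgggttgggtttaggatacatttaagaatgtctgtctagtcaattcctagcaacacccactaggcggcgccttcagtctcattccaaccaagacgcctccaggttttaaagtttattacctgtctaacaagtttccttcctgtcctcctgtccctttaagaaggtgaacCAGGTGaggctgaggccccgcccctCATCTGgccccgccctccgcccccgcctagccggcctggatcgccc
Robo1: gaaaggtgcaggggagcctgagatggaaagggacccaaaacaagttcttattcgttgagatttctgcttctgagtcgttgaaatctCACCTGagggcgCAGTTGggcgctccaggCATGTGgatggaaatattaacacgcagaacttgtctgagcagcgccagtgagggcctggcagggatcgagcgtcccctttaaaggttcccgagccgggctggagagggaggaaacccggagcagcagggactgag
Unc5b: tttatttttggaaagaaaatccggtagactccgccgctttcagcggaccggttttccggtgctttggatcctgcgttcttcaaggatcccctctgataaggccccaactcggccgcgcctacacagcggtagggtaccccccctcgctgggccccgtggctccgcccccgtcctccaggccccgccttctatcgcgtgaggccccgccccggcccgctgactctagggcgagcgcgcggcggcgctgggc
The Efna1 window held 1 TAATTA, as did 4.84% of all 32851 windows of this length. The Epha1 window held 2 E-boxes and the Robo1 window 3, and 66.2% of all windows held at least 1. Over all guidance genes 13 of 34 windows held an E-box and 3 of 34 held TAATTA. The Unc5b window, from the only called gene with a window that fell, held none of the motifs, nor did the Epha4 window or that of a second Efna1 start. TTCACGC was in 1.03% of all windows and in none of the 34 windows of the guidance genes, some of which have more than 1 start. These are letter matches in a short window and say nothing of binding.

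Among the ligands, Ntn1 had the largest difference. Ntn1 encodes netrin 1. Control arrays read 6.001, 5.72 and 6.06 log2 units for it, and mutant arrays read 6.84, 7.11 and 6.86. Every mutant array lay above every control array, by at least the whole spread of either group. The gene rose 2.02-fold, with a log2 difference of 1.01 (SE 0.12, limma adjusted p = 0.00809). The other Ntn1 probe set lay below the array median, at 3.12 ± 0.10 in control and 3.17 ± 0.16 in mutant RPCs, and had a log2 difference of 0.05. Taken as the median of both probe sets, Ntn1 differed by 0.53 and was not called. Ntn4, whose product is a basement membrane netrin, had a log2 difference of 0.04 (95% interval -0.23 to 0.30).

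Of the 6 netrin receptor genes, Dcc and Unc5b were lower and the others were not called. Dcc encodes the receptor through which ganglion cell axons are drawn to netrin. On the log2 scale it stood at 5.67, 6.26 and 6.38 in the control pools and at 5.01, 5.20 and 5.12 in the mutant pools. The mutant arrays were close together and all below control replicate 1, which was the lowest of the control arrays. Dcc fell by 1.00 on the log2 scale (SE 0.18, limma adjusted p = 0.0267), 1.99-fold lower. A second Dcc probe set showed the same order of control arrays, with 4.87, 5.57 and 6.18, and mutant values of 4.17, 4.03 and 4.33. It was called lower too, with a log2 difference of -1.36 (limma adjusted p = 0.0472). The third Dcc probe set, at 4.01 ± 0.12 in control RPCs, had a log2 difference of 0.01. Without the moderation of the variance Dcc was not called (adjusted p = 0.155).

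Unc5b encodes a netrin receptor that mediates repulsion and is prominent in vessels. Log2 levels were 7.17, 7.04 and 7.09 (control) against 6.41, 6.56 and 6.52 (mutant). Both groups were tight, and they did not overlap. Unc5b fell by 0.60 on the log2 scale (SE 0.07, limma adjusted p = 0.00814), which is just past the fold change of 1.5. The call ended with control replicate 1 (-0.57) or mutant replicate 1 (-0.56) left out, with the median over its probe sets (-0.51) and with 16 added to each value (-0.53). The dimmer Unc5b probe set had a log2 difference of -0.41 and was not called.

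The other netrin receptor genes were not called. Unc5a had log2 intensities of 4.59, 4.33 and 4.41 in control and 3.80, 3.93 and 4.29 in mutant RPCs, a log2 difference of -0.44 (95% interval -0.76 to -0.12, limma adjusted p = 0.122). Neo1 encodes neogenin, a relative of Dcc that also binds repulsive guidance molecules. Its brightest probe set had a log2 difference of 0.26 (limma adjusted p = 0.0982), and its 5 probe sets ran from -0.34 to 0.26. Unc5c had a log2 difference of 0.25 (95% interval -0.07 to 0.57). Unc5d lay below the array median in both groups.

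Among the Eph receptors, Epha1 and Epha4 were higher and none of the 12 was lower, although limma gave 1, Epha5, an unadjusted p under 0.05 with a negative log2 difference. Epha4 encodes a receptor that binds ephrins of both classes. The control pools gave log2 intensities of 6.10, 6.14 and 5.76, whereas the mutant pools gave 6.78, 6.85 and 6.75. The lowest mutant array lay above the highest control array by more than the range of the control arrays. Epha4 rose with a log2 difference of 0.79 (SE 0.11, limma adjusted p = 0.0114), 1.73-fold. All 5 Epha4 probe sets had positive log2 differences, from 0.14 for one below the array median to 1.03 for one that was called higher too.

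Epha1 encodes an Eph receptor of epithelia. Control arrays read 4.32, 4.17 and 4.38 log2 units for it, and mutant arrays read 5.29, 5.13 and 4.89. The groups did not overlap, and the levels were not far above the array median. Epha1 rose with a log2 difference of 0.81 (SE 0.11, limma adjusted p = 0.0127). Its other probe sets lay below the array median, with log2 differences of 0.34 and -0.03. The Epha1 call ended with the median over its probe sets (0.34), with 16 added to each value (0.50) and without the moderation of the variance (adjusted p = 0.103).

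The other EphA genes fell short of a call by their brightest probe sets. Epha2 had log2 intensities of 6.27, 6.42 and 6.59 in control and 6.77, 6.91 and 6.88 in mutant RPCs, a log2 difference of 0.43 (limma adjusted p = 0.0464) that stayed under 1.5-fold. Epha5 encodes a receptor that is high in temporal retina. Log2 intensities were 6.44, 6.70 and 6.58 (control) and 6.20, 6.14 and 6.16 (mutant), without overlap, a log2 difference of -0.41 (limma adjusted p = 0.0346). All 4 Epha5 probe sets were negative, from -0.41 to -0.07. Epha7 was called higher by its second probe set only, which had 4.60, 4.49 and 5.17 in control and 5.49, 5.54 and 5.22 in mutant RPCs and a log2 difference of 0.66 (limma adjusted p = 0.0933). The brightest Epha7 probe set had a log2 difference of 0.23 (limma adjusted p = 0.305), and control and mutant arrays overlapped. Epha3 had a log2 difference of 0.19 (95% interval -0.12 to 0.49), and Epha6 and Epha8 lay below the array median.

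None of the 4 EphB receptor genes measured was called by limma or had an unadjusted p under 0.05. EphB receptors are high in ventral retina. Ephb3 was at 6.22 ± 0.06 in control and 6.14 ± 0.03 in mutant RPCs, with a 95% interval of the log2 difference from -0.22 to 0.06. Ephb4, a receptor of veins, had a log2 difference of -0.08 (95% interval -0.32 to 0.15) and Ephb6, whose kinase is inactive, one of 0.02 (95% interval -0.13 to 0.18). The interval of Ephb1, from -0.27 to 0.59, reached the fold change of 1.5, and Ephb1 lay below the array median.

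Among the 8 ephrins, Efna1 was higher. Efna1 encodes an ephrin A that is also made by endothelium. On the log2 scale it stood at 6.30, 6.06 and 6.36 in the control pools and at 6.95, 6.84 and 6.82 in the mutant pools. The groups were apart by more than the range of the control arrays. Efna1 rose 1.55-fold, with a log2 difference of 0.63 (SE 0.09, limma adjusted p = 0.0152). Its other probe set was called higher as well, with 5.29, 4.87 and 5.65 in control and 6.24, 6.16 and 6.06 in mutant RPCs and a log2 difference of 0.88 (limma adjusted p = 0.0412). Efna1 lay close to the threshold and was not called without control replicate 2 (0.54), with 16 added to each value (0.54) or without the moderation of the variance (adjusted p = 0.101).

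Efna5 and Efnb2 differed in opposite directions by less than 1.5-fold. Efna5 encodes an ephrin A that is high in nasal retina. Log2 intensities were 8.23, 8.51 and 8.32 (control) and 7.89, 8.05 and 7.96 (mutant), with every mutant array below every control array, and the log2 difference was -0.38 (95% interval -0.59 to -0.17, limma adjusted p = 0.0576). A further probe set carries the name Efna5 in the study and no gene in the annotation used here. It stands outside the counts, and its values were seen before it was added: it was called lower, with a log2 difference of -0.68 (limma adjusted p = 0.037). Efnb2, the ephrin B of dorsal retina and of arteries, had log2 intensities of 9.19, 9.15 and 9.09 in control and 9.49, 9.51 and 9.49 in mutant RPCs. The log2 difference was 0.35 (SE 0.06, 95% interval 0.22 to 0.49, limma adjusted p = 0.021), and the interval lay below the fold change of 1.5. All 4 Efnb2 probe sets were positive, from 0.35 to 0.55, and none was called by limma, with adjusted p of 0.021 to 0.198.

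The remaining ephrins were not called. Efna2, Efna3, Efna4 and Efnb1 had log2 differences between 0.00 and 0.09 by their brightest probe sets, and each of their 95% intervals lay within the fold change of 1.5 in both directions. Efnb3 had a log2 difference of -0.18 (95% interval -0.37 to 0.01). A dimmer Efna2 probe set had a log2 difference of -0.33 (limma adjusted p = 0.0671), which its brightest one did not show.

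Robo1 was higher by its brightest probe set. Log2 levels were 4.33, 4.64 and 5.29 (control) against 5.93, 5.83 and 5.76 (mutant). The control arrays spread over almost a log2 unit while the mutant arrays were close together, and the groups did not overlap. Robo1 rose with a log2 difference of 1.09 (SE 0.22, limma adjusted p = 0.0402), the largest among the 34 genes by the brightest probe set. Its other probe sets lay below the array median, with log2 differences of -0.06 and -0.05, and the median of its probe sets gave -0.06. The Robo1 call ended when control replicate 2 was left out (1.03), when any of the mutant replicates was left out (1.04 to 1.13, limma adjusted p of 0.107 to 0.128), and without the moderation of the variance (adjusted p = 0.188).

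The other Slit and Robo genes were not called. Slit2, the main Slit of the optic chiasm region, was at 8.22, 8.19 and 8.25 in control and 8.36, 8.48 and 8.39 in mutant RPCs, without overlap. The log2 difference was 0.19 (95% interval 0.04 to 0.33, limma adjusted p = 0.139), and a second Slit2 probe set had one of -0.33 (limma adjusted p = 0.0566), so that the probe sets differed in sign. Slit1 had a log2 difference of -0.13 (95% interval -0.34 to 0.07) and Slit3 one of 0.16 (95% interval -0.12 to 0.44). Robo2 and Robo3 lay below the array median in both groups by their brightest probe sets.

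**Figure D2:**
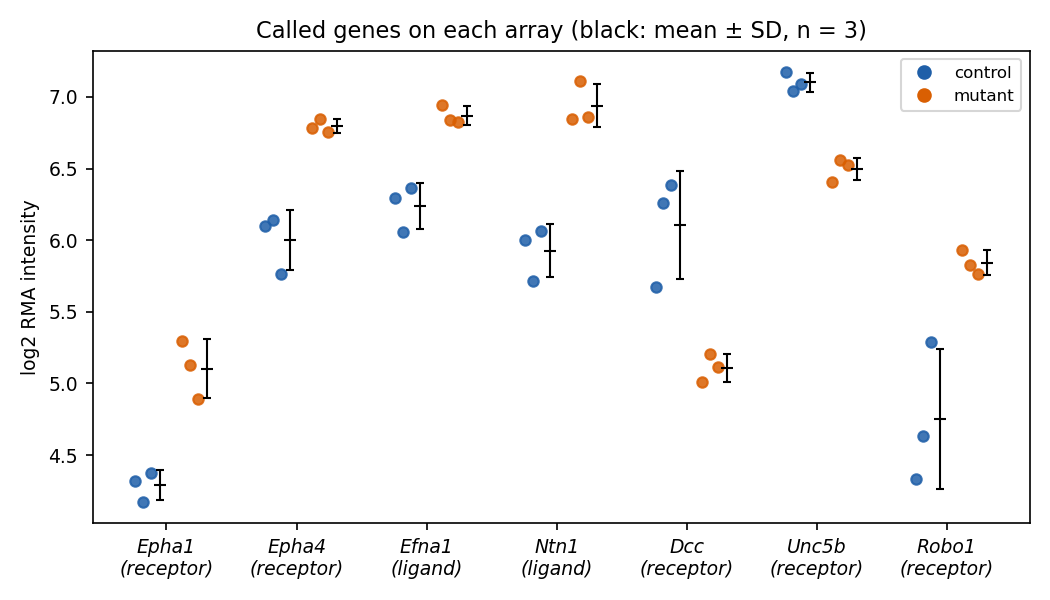
Log2 RMA intensity (y axis) of the 7 called genes by their brightest probe set, with 1 point per array, control in blue and mutant in orange, and black bars for the mean and SD of 3 arrays. For each gene the mutant arrays lie wholly above or wholly below the control arrays, and Dcc and Robo1 have the widest control groups.

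Across all 74 probe sets of the 34 genes, 8 were called higher and 3 were called lower, against 1.67% and 0.984% of all probe sets, which makes 11 of 74 in either direction against 2.65%. They belonged to 8 genes, the 7 named above and Epha7. Of the 21 genes with more than 1 probe set, 7 had probe sets of both signs, and no gene had probe sets called in opposite directions. Efna1 and Dcc had 2 called probe sets each, as had Epha4. For Epha1, Ntn1, Robo1 and Unc5b the call rested on the brightest probe set alone. The other probe sets of Epha1, Ntn1 and Robo1 lay below the array median. That of Unc5b lay above it and had a log2 difference of -0.41 (limma adjusted p = 0.196). In all, 22 of the 34 genes had a 95% interval that lay within the fold change of 1.5 in both directions, and 5 genes that were not called had an interval that reached it. Over all 18193 genes these counts were 15935 and 1676, so a smaller share of the guidance genes than of all genes lay within it.

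**Figure D3:**
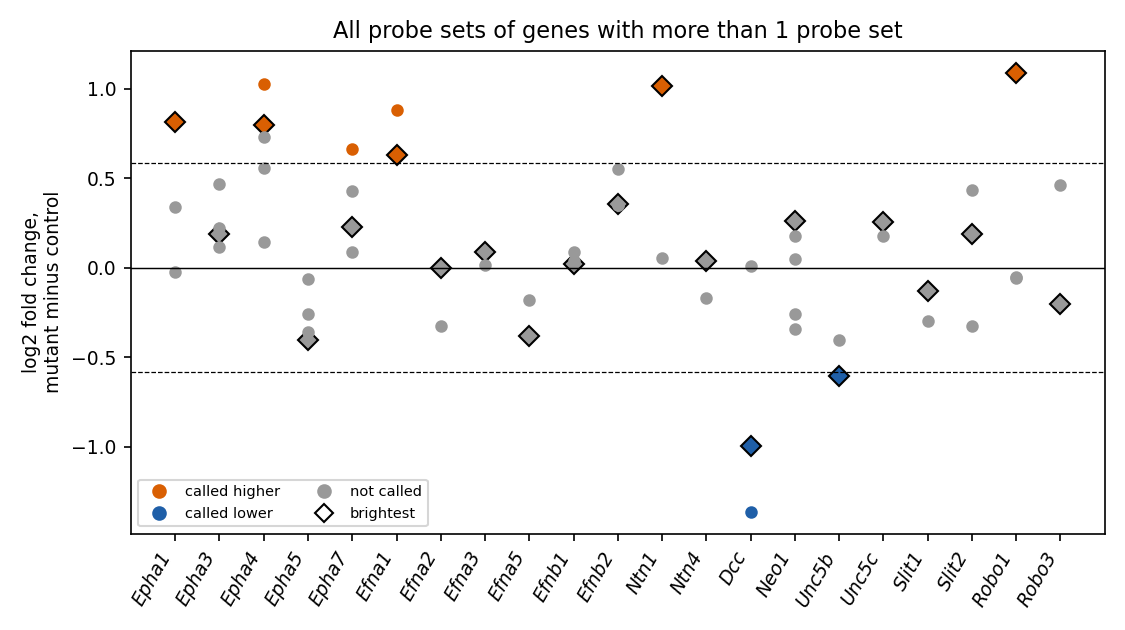
Log2 difference (y axis, mutant minus control) of every probe set of the 21 genes that have more than 1, with the brightest one as an outlined diamond and dashed lines at a fold change of 1.5. The 4 Efnb2 and 5 Epha4 probe sets all lie above 0, and those of Neo1, Slit2 and Robo3 lie on both sides of it.

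Other genes of these pathways were taken from lists that hold related family members, signalling proteins inside the cell and regional regulators of the optic cup. Of 14 related family members and ligands, 2 were higher and 1 was lower, against 2.28% and 0.918% of all genes. Draxin encodes a secreted protein that binds netrin 1 and Dcc. It had log2 intensities of 5.98, 6.08 and 5.51 in control and 4.19, 4.56 and 4.86 in mutant RPCs and fell by 1.32 on the log2 scale (SE 0.20, limma adjusted p = 0.0178). Flrt1, of a family that binds Unc5 receptors, rose with a log2 difference of 0.71 (limma adjusted p = 0.0109), and the endothelial gene Robo4 with 0.74 (limma adjusted p = 0.0839). With Dcc, Unc5b and Draxin lower and Ntn1 higher, genes of the netrin pathway went both ways.

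Of 38 signalling genes 1 was lower and none was higher, against 0.918% of all genes called lower and 2.28% called higher. Limma gave an unadjusted p under 0.05 to 3 of the 38 with a positive log2 difference and to 7 with a negative one. The gene that fell was Ngef, which encodes ephexin, a protein that EphA receptors bind. Log2 intensities were 5.65, 5.94 and 5.53 (control) and 4.93, 4.71 and 4.81 (mutant), a log2 difference of -0.89 (SE 0.12, limma adjusted p = 0.0109). The 95% intervals of 37 of the 38 genes, which encode machinery shared by these receptors, lay within the fold change of 1.5. Over all 18193 genes, 15935 had such an interval.

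Of 13 regional regulators 1 was higher and 4 were lower, against 2.28% and 0.918% of all genes. Bmp4, which acts in dorsal retina, rose with a log2 difference of 1.57. Foxd1, a regulator of temporal retina, fell by 0.91 on the log2 scale, and Zic2, a regulator of Ephb1 in ganglion cells of ventral retina, fell by 0.71 (limma adjusted p = 0.0153). Bmpr1b, a BMP receptor gene, had a log2 difference of -0.59, and Cyp26a1, a retinoic acid-degrading enzyme gene, one of -1.88. Vax2, which specifies ventral retina, was at 7.86 ± 0.08 in control and 7.34 ± 0.06 in mutant RPCs, a log2 difference of -0.52 (limma adjusted p = 0.0118) that fell short of 1.5-fold. The dorsal factor genes Tbx5 and Tbx2 had log2 differences of 0.46 (limma adjusted p = 0.14) and -0.41 (limma adjusted p = 0.0205). Tbx3, of the same family, had one of -0.39 (limma adjusted p = 0.0437). Values of single dorsal and ventral genes thus did not share one direction. Of the 13 regional regulators, 10 had a negative log2 difference and 3 a positive one.

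Markers of other cells of the eye differed between the same arrays. For the counts of called markers below, 2.28% of all genes were called higher and 0.918% lower. The summed linear intensity of 14 ganglion cell and newborn neuron markers ranged from 533 to 826 in control and from 348 to 415 in mutant RPCs, and 5 of the 14 were lower. Among the control arrays, replicate 1 had the lowest neuron sum (533) and the lowest Dcc value (5.67), whereas Draxin (5.51) and Ngef (5.53) were lowest in replicate 3, which had the highest neuron sum (826). Within that list Pou4f1 and Dcx lay below the array median in both groups. Without control replicate 1 the log2 difference of Dcc was -1.21 (limma adjusted p = 0.00719). The part of neuron number in the Dcc, Draxin and Ngef values was not tested.

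For 13 endothelial markers the sum ranged from 942 to 1204 in control and from 1532 to 1675 in mutant RPCs, and 5 were higher. Among the control arrays, the endothelial sum was lowest in replicate 2 (942), as were Epha1, Efna1, Ntn1 and Unc5b, whereas Epha4 and Efnb2 were lowest in replicate 3 and Robo1 in replicate 1. Replicate 2 also had the lowest control sums of pigment epithelium (6611) and erythroid markers (8137). The control sum of lens markers was lowest in replicate 3 (2808) and that of mesenchyme markers in replicate 1 (602). The sum of 13 lens and surface ectoderm markers ranged from 2808 to 3853 in control and from 4990 to 5263 in mutant RPCs, with 6 higher, among them the epithelial genes Cdh1 and Epcam. The sum of 12 mesenchyme and mural cell markers ranged from 602 to 640 and from 945 to 1283, with 6 higher, and Twist1 and Rgs5 lay below the array median. The sum of 13 pigment epithelium markers ranged from 6611 to 8062 and from 10727 to 10771, with 7 higher, and Rpe65 lay below the array median. Of 5 erythroid markers 1 was higher, and their sums were 8137 to 11043 and 11389 to 12296, with Hba-a1 below the array median. The 9 progenitor markers summed to between 7263 and 7647 in control and between 4704 and 4885 in mutant RPCs, with Sfrp2, Fgf15 and Nr2e1 lower. Sfrp2 and Fgf15 were the brightest of the 9 in the control pools and carried most of that fall in the sum. Rax and Six3 were not called but had log2 differences of -0.38 and -0.40, with every mutant array below every control array. Lhx2, Six6, Sox2 and Hes1 had log2 differences between -0.19 and 0.06. Of the 9 markers, 8 had a negative log2 difference. In each of these lists the control and mutant sums did not overlap, and their part in the values of Epha1, Epha4, Efna1, Efnb2, Ntn1, Robo1 and Unc5b was not tested.

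**Figure D4:**
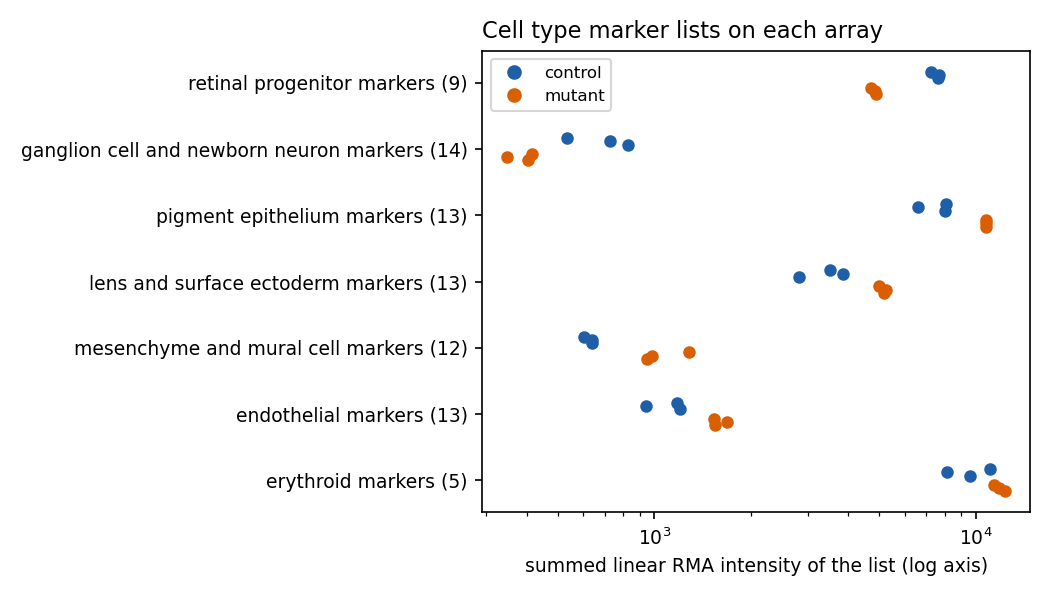
Summed linear RMA intensity (x axis, log scale) of 7 marker lists on each array, with control in blue, mutant in orange and the number of genes measured in brackets. Progenitor and neuron sums are lower on all mutant arrays, and the sums of other cells are higher on all of them.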

How the data were processed

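GFP-positive cells of 3 control and 3 mutant pools were profiled, and the groups follow the sample labels. The deposited values are linear intensities, normalized and summarised by the authors with RMA. The paper names RACE and Bioconductor for its RMA processing. RMA and the Affymetrix Expression Console stand in the submitters' processing notes, with versions not given in the sources used here. The sources thus differ in the program named. RMA draws array distributions together, so a shift of all genes would not be seen. Arrays have no read depth, so the number of arrays limits the precision. The paper calls the 3 pools of each genotype biological replicates, but nothing in the labels states separate litters. The p-values thus measure the spread between these pools.

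Log2 was taken, 64 control probe sets were left out, and limma 3.58.1 in R 4.3.3 was fitted to 45037 probe sets, with thresholds as in the study's methods. Of these, 34945 had 1 gene symbol in the platform annotation, 932 had several and 9160 had none. Genes were named where called, where a further probe set was called, and for the largest and smallest other differences. The genes and lists were chosen with earlier results of these data known. Code was tested on simulated data. Alternatives were array centring, a filter on low probe sets, variance settings, array weights, 16 added to each value, other probe set choices, a replicate block and leaving out each array. Figures were drawn with matplotlib 3.10.9.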

Additional observations from a re-analysis of the deposited data

How the results depend on the processing

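The number of genes called higher, 5 of 34, and lower, 2 of 34, was the same with arrays centred, the lowest 40% of probe sets left out, the variance prior as a trend, array weights or only probe sets not of the _s_at or _x_at type. Without the moderation of the variance 2 genes were higher (1 ligand and 1 receptor) and 1 was lower, with 16 added to each value 3 were higher (1 ligand) and 1 was lower, and by the median of a gene's probe sets 2 were higher (1 ligand and 1 receptor) and 1 was lower. In these settings the receptors lower numbered 1 as well. Over all genes 160 were higher and 87 lower without the moderation, and 199 and 82 with 16 added. Of the probe sets of these genes 2 were higher and 1 lower without the moderation, and 5 were higher with 16 added. Pathway genes called higher numbered 1 with 16 added, and without the moderation 6 markers of other cells were higher and 4 of progenitors and neurons lower. Leaving out each array in turn, 3 to 5 genes were called higher (1 to 2 ligands, 2 to 3 receptors) and 1 to 2 lower (all receptors), with 5 to 10 probe sets higher and 1 to 3 lower, 2 to 3 pathway genes higher and 5 to 6 lower, 15 to 25 markers of other cells higher, 5 to 11 markers of progenitors and neurons lower, and 288 to 451 of all genes higher and 144 to 192 lower. Fewest guidance genes were higher without control replicate 2 (3), and markers of other cells (15) without mutant replicate 2. A group with 2 arrays left relies on the spread of the other group.

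Same-numbered control and mutant arrays did not deviate together, with correlations of -0.0106, -0.0006 and -0.0085, so the numbers were not taken to pair the samples. With the replicate number as a block 5 genes were higher and 2 lower, and 389 and 162 of all genes, so no count moved by over 1.5 times.

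Signs turned only for log2 differences that were not called, apart from Robo1, which was -0.0557 by the median of its probe sets. By that median Neo1 was -0.34, Slit2 -0.33, Ntn4 -0.0657, Efnb1 -0.0093 and Robo3 0.13. Efna2 was 0.0079 with arrays centred and 0.0011 with array weights. Leaving out each array, the range was -0.0466 to 0.0523 for Efna2, -0.0463 to 0.0725 for Efna4, -0.0097 to 0.0403 for Efnb1, -0.075 to 0.13 for Ntn4, -0.01 to 0.24 for Epha6, -0.0373 to 0.22 for Epha8, -0.0567 to 0.33 for Ephb1, -0.0147 to 0.0686 for Ephb6, -0.0645 to 0.11 for Unc5d and -0.11 to 0.14 for Robo2. Log2 values below the array median are compressed by background, which limits what can be measured for 6 of the 34 genes. The cause of these changes was not tested.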
